A study of Homo sapiens with 1 sample.

Results

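The cluster of miR-183, miR-96 and miR-182 gives 6 mature microRNAs (miRNAs), a 5p and a 3p arm from each of 3 hairpins, and all 6 were among the 2549 human miRNAs on the array. The members were taken by name from the scanner file: hsa-miR-183-5p, hsa-miR-183-3p, hsa-miR-96-5p, hsa-miR-96-3p, hsa-miR-182-5p and hsa-miR-182-3p. They were read in 1 sample of DLD-1 cells, a cell line from a human colorectal carcinoma, that had been given negative control siRNA (si-NC) in RPMI medium with fetal bovine serum. The study compared such cells with cells given siRNA against circLONP2, a circular RNA of the LONP2 gene, to ask how miRNA levels changed. The knockdown array was not analysed here. With 1 array there was no comparison between groups and no test, and every error below is technical, either the spread over spots or the error that the software assigns.

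The cluster is transcribed as a single primary RNA that Drosha and Dicer cut into hairpins and then into mature arms, of which the 5p arms are the usual guide strands. It is best known from sensory cells of the ear and the eye, where base changes in the seed of miR-96 cause hearing loss, and it is raised in many carcinomas, colorectal carcinoma included, with the FOXO1 messenger RNA among its known targets. In RefSeq the mature arms lie on the minus strand of chromosome 7 between positions 129770406 and 129774988 of GRCh38.p14, a stretch of 4583 bases. No other gene of the RefSeq table overlaps the hairpins, and the nearest protein-coding genes are NRF1 and UBE2H. The array was designed on the hg19 build and its file carries no positions for probes, so the positions are those of RefSeq only. Of the 2549 miRNAs, 2248 (88.2%) had a mature sequence of the same name in the RefSeq table, including all 6 members.

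The mature sequences of the guide arms are shown first, because their starts are alike. Capitals mark the seed, bases 2 to 8 counted from the 5′ end, which carries most of the target pairing.
hsa-miR-183-5p, chr7:129774967-129774988: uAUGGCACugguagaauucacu
hsa-miR-96-5p, chr7:129774739-129774761: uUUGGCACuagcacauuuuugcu
hsa-miR-182-5p, chr7:129770447-129770470: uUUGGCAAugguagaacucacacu
Over the first 8 bases, miR-96-5p had 7 in common with miR-183-5p and 7 in common with miR-182-5p, and miR-183-5p and miR-182-5p had 6 in common. None of the 3 seeds was identical to another. Over their whole length miR-183-5p and miR-182-5p were closest, 5 edits apart with a longest shared run of 8 bases (UGGUAGAA), while miR-96-5p was 8 edits from miR-183-5p and 10 from miR-182-5p.

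The other arms, shown because each of them had at least 1 probe without a spot well above background, had no such likeness.
hsa-miR-183-3p, chr7:129774928-129774949: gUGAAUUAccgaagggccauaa
hsa-miR-96-3p, chr7:129774697-129774718: aAUCAUGUgcagugccaauaug
hsa-miR-182-3p, chr7:129770406-129770426: uGGUUCUAgacuugccaacua
Each pair of these 3 arms was 12 or 13 edits apart and had at most 6 bases in a shared run. No miRNA outside the cluster with a sequence here came within 3 edits of any member. Among miRNAs outside the cluster with a sequence here, the fewest edits to a member were 7 for miR-96-5p and miR-96-3p, 8 for miR-183-5p, miR-182-5p and miR-182-3p, and 9 for miR-183-3p.

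The RefSeq hairpins of MIR182 and MIR96 are given to show where the arms sit, with the mature arms in capitals. The hairpin of MIR183 is named only.
MIR182, chr7:129770383-129770492: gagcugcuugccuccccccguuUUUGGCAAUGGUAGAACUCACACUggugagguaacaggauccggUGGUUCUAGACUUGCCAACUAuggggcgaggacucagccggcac
MIR96, chr7:129774692-129774769: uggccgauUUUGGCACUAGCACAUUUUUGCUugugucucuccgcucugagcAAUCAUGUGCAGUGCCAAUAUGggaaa
The arms of MIR183 and MIR96 are neighbours, with 166 bases between miR-183-3p and miR-96-5p, while 4226 bases separate miR-96-3p from miR-182-5p.

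The array gave each miRNA 20 spots, divided among 1 to 4 different probes. The layout of 2 probes was used for 2056 miRNAs and that of 4 probes for 314. Of the members, miR-96-5p had 2 probes of 10 spots and each of the other 5 arms had 4 probes of 5 spots, so the cluster took up 120 spots of 22 probes. No miRNA spot was saturated. The software flagged 1 member spot as an outlier, a spot of miR-96-5p, which was left out of spot means. A spot counts as well above background by a flag of the software, and 83 of the 120 member spots (69.2%) carried it, against 34.3% of all miRNA spots and 1.40% of the 1000 negative control spots. The negative control spots had a 99th percentile of 16.1. The label of a colon carcinoma line was checked with marker miRNAs, where 44.4% of all miRNAs on the array were called detected. Of the colon epithelium markers 10 of 10 were called. So were 4 of 7 blood, 1 of 6 muscle, 1 of 6 stroma and vessel and 2 of 4 neural and liver markers. By total signal the blood marker miR-142-3p ranked 73 among detected miRNAs, between miR-215-5p (67) and miR-203a-3p (78) of the colon epithelium list. That list includes arms of the miR-200 clusters, which mark epithelial cells in general, so not every marker on it is particular to colon. The part of these markers in the cluster's signals was not tested.

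The software called 5 of the 6 arms detected, the exception being miR-96-3p, where 44.4% of all miRNAs on the array were called detected. In these data a miRNA was called when the signal of at least 1 probe reached 3 times its error, and this ratio for the best probe was 9.99 for miR-96-5p, 9.98 for miR-182-5p, 9.88 for miR-183-5p, 9.41 for miR-183-3p, 6.22 for miR-182-3p and 1.20 for miR-96-3p. No member thus lay next to the limit, around which the nearest miRNAs had 3.00 (detected) and 2.99 (not detected). Of the 810 hairpins with both arms on the array, 232 (28.6%) had both called detected, 163 (20.1%) the 5p arm alone and 293 (36.2%) neither. In the cluster, the hairpins MIR183 and MIR182 had both arms detected and MIR96 its 5p arm alone. The members are too few for a share of them to be read against those of the array.

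The total gene signal, the software's sum over those probes of a miRNA that it detected, was 1549 ± 110.3 (error of the software) for miR-96-5p, 159 ± 9.50 for miR-182-5p and 47.5 ± 2.61 for miR-183-5p. Among the 3p arms it was 12.8 ± 0.909 for miR-183-3p and 4.10 ± 0.483 for miR-182-3p. Among the 1133 detected miRNAs, whose median was 12.5, these signals stood at ranks 51, 160, 300, 559 and 912. The guide arms were therefore in the upper part of the list, miR-183-3p near its middle and miR-182-3p low in it, at percentile 19.6, and no neighbouring members overlapped within their errors. Ranked by mean log2 spot signal instead, miR-183-3p stood at percentile 33.4 rather than 50.8. Ranked by the deposited log2 values, miR-182-3p stood at 12.5. Its deposited value, 2.3236, lay just above the floor of those values, 2.3219, so that place is not resolved. Signals of different miRNAs come from different probes, so the ranks place each arm on this array and do not measure how many copies of one arm there were against another.

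**Figure D1:**
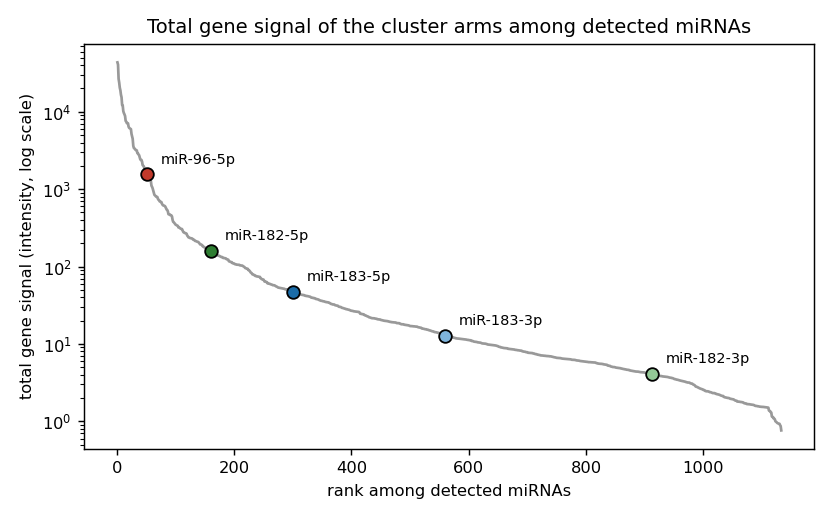
Total gene signal (intensity, log axis) against rank for the 1133 detected miRNAs of the si-NC array, drawn as a grey line, with the 5 detected arms of the cluster as points (bars, error of the software, smaller than most points). The arms run from 1549 for miR-96-5p at rank 51 to 4.10 for miR-182-3p at rank 912.

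To read the spot signals against the array itself, the log2 signal of each arm was taken relative to an intensity of 143, the 75th percentile of the spots that belong to detected miRNAs. On this log2 scale miR-96-5p was 4.87 ± 0.06 (SD of spots about their probe mean, 19 spots), miR-182-5p at 0.72 ± 0.17 (20 spots) and miR-183-5p at -0.31 ± 0.12 (20 spots). The 3p arms were at -3.06 ± 0.63 for miR-183-3p (19 spots above 0) and -3.64 ± 0.39 for miR-182-3p (20 spots). Both of these include probes with no more than 2 of 5 spots well above background, and for miR-183-3p the spot below 0 is left out. With normexp they were -1.17 and -1.51, and from the brightest probe alone -0.95 and -2.78, while the deposited values gave -2.04 for miR-183-3p. The deposited values are given per miRNA, not per spot, and were set against a reference of their own, not 143. In the main setting, relative to 143, miR-96-5p was above the reference by many times its spread between spots. The value of miR-182-5p includes its dimmest probe and was higher under other settings, at 2.51 from the brightest probe alone, 3.16 with the percentile over all miRNA spots and 1.53 with the deposited values. The place of miR-183-5p just under it was not stable: from its brightest probe alone the value was 0.29, and with the percentile over all miRNA spots, an intensity of 26.3, it was 2.13. The median spot over its local background, as a raw ratio of the pixel medians, was 364 for miR-96-5p, 39.8 for miR-182-5p, 13.8 for miR-183-5p, 4.25 for miR-183-3p, 2.40 for miR-182-3p and 1.44 for miR-96-3p.

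The values of miR-96-5p, the arm whose seed is altered in hereditary hearing loss, were alike between its probes. The 10 spots of probe A_25_P00012034 ran from 3518 to 3964 around a median of 3882, and the 9 spots kept of A_25_P00012035 ran from 4328 to 4936 around a median of 4725. Every spot of the second was above every spot of the first. The means were 3777 ± 179.7 (SD, 10 spots) and 4694 ± 171 (SD, 9 spots), a log2 difference of 0.31 ± 0.03 (SE from replicate spots). That is close to the median of 0.32 over the 682 detected miRNAs with 2 usable probes, where usable means that 50% or more of the spots of a probe were well above background.

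For miR-182-5p, which shares most of its start with miR-96-5p, 1 of 4 probes stood apart. The 5 spots of A_25_P00012095 read 765, 767, 815, 857 and 870.4, those of A_25_P00012094 read 414, 457, 466, 472 and 504, and those of A_25_P00012093 read 410.3, 416, 447, 462 and 471. The 5 spots of A_25_P00012092 read 14.6, 17.4, 17.6, 19.5 and 25.4. These last spots were all flagged as well above background, yet 1 of them was under the level of 16.1 that bounds 99% of negative control spots, and none came within reach of the other 3 probes. The probe means were 815 ± 48.9, 463 ± 32.5, 441 ± 27.1 and 18.9 ± 4.02 (SD, 5 spots each). The means of 463 and 441 differed by less than their SD, while the brightest and the dimmest differed by 5.43 ± 0.14 on the log2 scale, 43.1-fold.

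**Figure D2:**
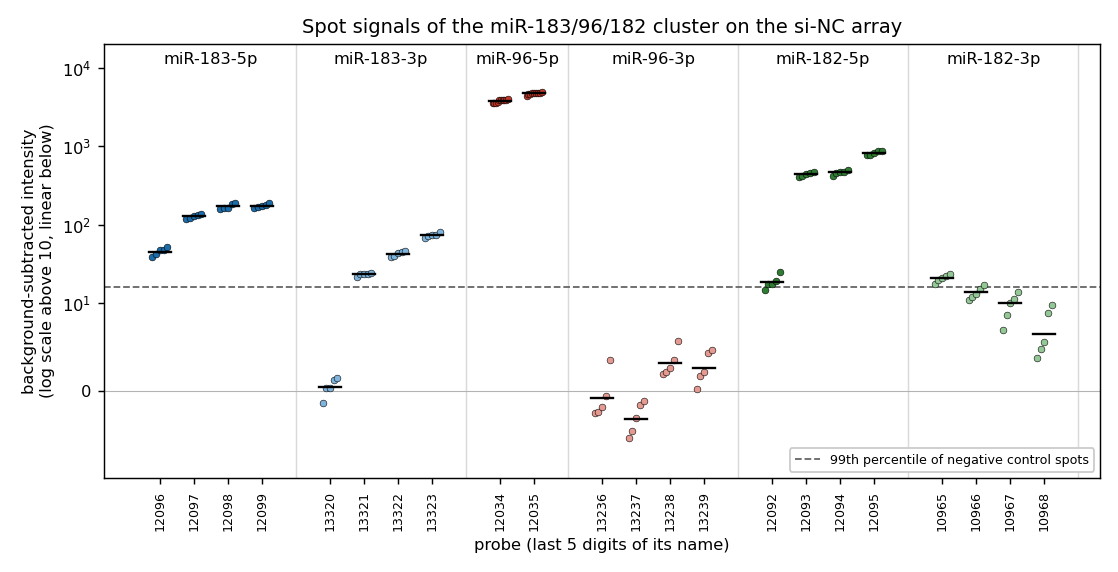
Background-subtracted intensity (log axis above 10, linear below) of each kept spot of the 22 probes of the cluster, with the mean of each probe as a black line and the 99th percentile of negative control spots (16.1) as a dashed line. The spots of miR-96-5p lie between 3518 and 4936, the dimmest probe of miR-182-5p lies near the dashed line far under its other probes, and the spots of miR-96-3p scatter about 0.

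Most of that difference was a single step. Between the dimmest probe of miR-182-5p and the next there were 4.55 log2 units, and the remaining 3 probes lay within 0.88. Among the 57 detected miRNAs with 4 usable probes, the difference of 5.43 and the step of 4.55 were each the highest, where the medians were 1.17 and 0.45 and the next largest step was 3.95, in miR-32-5p. Over all 800 detected miRNAs with at least 2 usable probes, only miR-6858-5p had a larger difference, 6.26 ± 0.11, from a dimmest probe with a mean of 15.1. The following values, 5.21 ± 0.09 for miR-15b-3p and 5.16 ± 0.10 for miR-338-5p, were less than 2 of their combined errors away from that of miR-182-5p, so its place among them is not resolved, nor is its first place among miRNAs with 4 usable probes, of which miR-15b-3p is one. The size depended on the background correction: with normexp the difference was 3.54 in miR-182-5p, 1.16 in miR-183-5p and 0.68 in miR-183-3p. In the total gene signal the dimmest probe carried 1.09% of the sum and the brightest 46.9%, so the total hardly depended on the dim probe, and the median share of the brightest probe was 47.6% over 142 detected miRNAs with 4 probes.

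The probes of miR-183-5p, the remaining guide arm, showed the same order with a smaller range. The 5 spots ran from 38.7 to 51.4 for A_25_P00012096, from 117 to 137 for A_25_P00012097, from 159 to 188 for A_25_P00012098 and from 163 to 191 for A_25_P00012099. The last 2 probes overlapped, with means of 172 ± 13.6 and 175 ± 10.8 (SD, 5 spots), while the others, at 45.6 ± 4.97 and 128 ± 7.82, lay apart from them and from each other. Brightest and dimmest probe differed by 1.94 ± 0.08 (log2, SE), of which 1.49 was the step from the dimmest to the next. That difference ranked 17 of the 57 miRNAs with 4 usable probes.

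In miR-183-3p, the strand opposite miR-183-5p in its hairpin, the probes divided into 3 with a clear signal and 1 without. The spots of A_25_P00013323 ran from 68.2 to 81.2, those of A_25_P00013322 from 38.5 to 45.9 and those of A_25_P00013321 from 21.6 to 24.1, with no overlap between the probes. The spots of A_25_P00013320 read -1.40, 0.240, 0.270, 1.27 and 1.49, and none was well above background. Under a rule that asks for every probe to be usable, this arm was therefore not detected. Over the 3 usable probes the log2 difference was 1.66 ± 0.05, rank 9 of the 61 miRNAs with 3 such probes, whose median was 0.51. Set against the lowest mean of any usable probe on the array, 11.7, the brightest probe was at least 6.30-fold brighter than the probe without a signal.

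For miR-182-3p the order of the probes ran the other way and every probe was dim. The spots of A_25_P00010965 ran from 17.8 to 23.4, all well above background, while 2, 1 and 0 of 5 spots carried that flag for A_25_P00010966, A_25_P00010967 and A_25_P00010968. The means of these 4 probes were 20.8 ± 2.14, 13.8 ± 2.54, 10.2 ± 2.67 and 6.54 ± 2.67 (SD, 5 spots each). With 1 usable probe there was no difference to give, and the brightest was at least 1.78-fold brighter than the dimmest. The call of this arm depended on the rule: it was not detected where the median spot had to exceed 16.1, the level set by negative control spots. Nor was it detected where the total gene signal had to be 5 or more, or where every probe had to be usable.

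The spots of miR-96-3p, the undetected arm, scattered about 0. The means of its 4 probes were -0.799 ± 2.50, -3.22 ± 1.82, 3.15 ± 1.57 and 2.60 ± 1.85 (SD, 5 spots each), and 9 of its 20 spots were at or below 0. The highest spot read 5.73, below the level of 16.1 given by negative control spots. No spot was well above background, so a signal of this arm was not detectable at the background of this array, which does not show that the arm was absent.

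**Figure D3:**
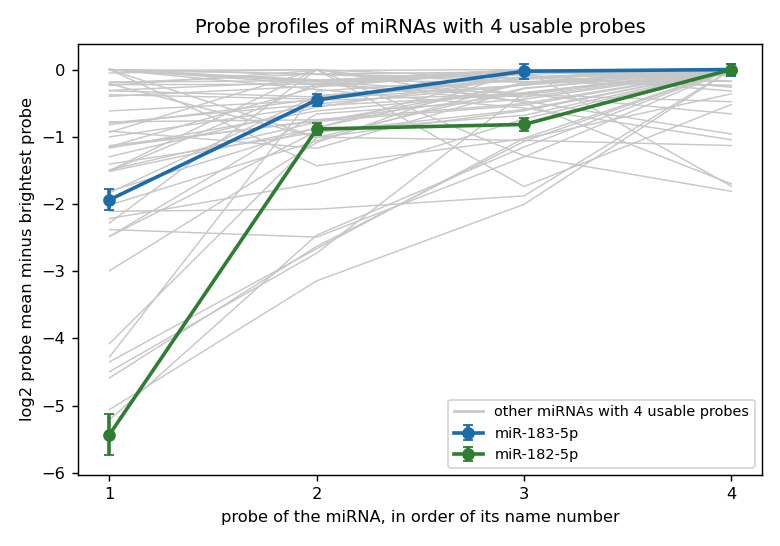
Log2 mean of each probe minus that of the brightest probe of the same miRNA, with probes in the order of their name numbers, for the 57 detected miRNAs with 4 usable probes (grey lines, and miR-183-5p and miR-182-5p in colour with the SD over 5 replicate spots as bars). The lowest-numbered probe of miR-182-5p sits 5.43 under its brightest and that of miR-183-5p 1.94 under.

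The order of the probes was then compared over the array. In miR-183-5p, miR-183-3p and miR-182-5p the probe means rose with the number in the probe name, and in miR-182-3p they fell. Over the 142 detected miRNAs with 4 probes the means rose in 72 (50.7%), fell in 10 (7.04%) and followed neither order in 60 (42.3%). Among the 57 with all 4 probes usable, the lowest-numbered probe was the dimmest in 38 (66.7%), miR-182-5p and miR-183-5p among them. An order that rises is thus common on this array and not particular to the cluster. The files give neither the sequences nor the lengths of the probes, so what the numbers stand for was not tested.

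In all, 4 arms had at least 2 usable probes, and 3 of them differed by 1 log2 unit or more between probes, or 2 of them with normexp. Without normexp the same held for 157 of the 800 detected miRNAs with at least 2 usable probes (19.6%). The share over the array with normexp is not given here. Among the 118 with 3 or 4 usable probes, as in those 3 arms, 56 (47.5%) differed by 1 or more without normexp. Each of those arms had 4 probes on the array, and miR-183-3p enters with its 3 usable ones. The 3 arms with 3 or 4 usable probes were all among those at 1 or more, and are too few for their share to be read against that of the array. The miR-200 clusters, which also mark epithelial cells, gave 4 of 9 arms at 1 or more, and their arms with 4 usable probes differed by 2.48 ± 0.02 (miR-200b-5p), 1.83 ± 0.03 (miR-141-5p) and 1.51 ± 0.04 (miR-200c-5p). The difference in miR-183-5p lay within that range and the difference in miR-182-5p above it. In miR-191 and miR-425, a further pair of hairpins in 1 locus, 1 of 3 arms with a difference reached 1, miR-191-3p at 1.13 ± 0.10.

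**Figure D4:**
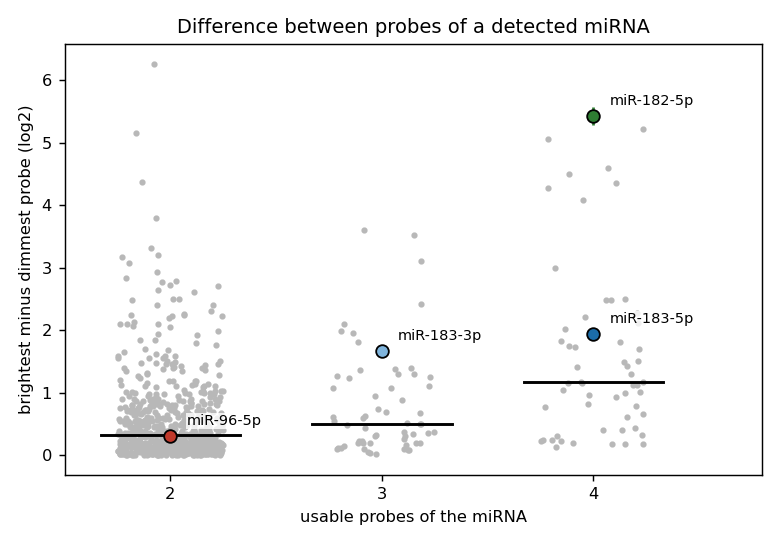
Log2 difference between the brightest and the dimmest usable probe of each of 800 detected miRNAs, by the number of usable probes (grey points, black line at the median), with the 4 cluster arms in colour and their SE over replicate spots as bars. With 4 usable probes miR-182-5p (5.43 ± 0.14) has the highest value, not resolved from miR-15b-3p (5.21 ± 0.09). With 2 usable probes miR-96-5p (0.31) lies on the median.

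Replicate spots gave the error within a probe. Over the 14 usable probes of the cluster the coefficient of variation (CV) had a median of 6.30%, against 8.73% over the 1940 usable probes of the array. It ran from 3.65% in A_25_P00012035 of miR-96-5p to 21.3% in A_25_P00012092, the dim probe of miR-182-5p.

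Among miRNAs outside the cluster with a sequence here, only hsa-miR-1271-5p had the seed of a member. It has the seed of miR-96-5p and a different body 9 edits away. Its sequence is shown beside that of miR-96-5p to make this visible, with the seed in capitals.
hsa-miR-96-5p: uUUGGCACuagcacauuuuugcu
hsa-miR-1271-5p: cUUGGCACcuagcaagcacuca
It was called detected at a total gene signal of 2.65 ± 0.552 (error of the software), with 6 of 20 spots well above background and spots from 0.0913 to 21.5 around a median of 9.94. Its spots thus reached into the range of negative control spots, while the lowest spot of miR-96-5p read 3518. Of 11 miRNAs often reported as raised in colorectal carcinoma, such as miR-21-5p, miR-31-5p and miR-135b-5p, all 11 were called detected. The share over all miRNAs on the array was 44.4%. In this list miR-200c-3p and miR-141-3p are also among the colon epithelium markers counted above. The total gene signals of the 11 ran from 106 ± 7.51 for miR-135b-5p to 23842 ± 1688 for miR-21-5p. In each, 20 of 20 spots were well above background.

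The table of processed log2 values that the authors deposited kept the order of the arms. It gave 10.24 for miR-96-5p, 7.36 for miR-182-5p, 5.69 for miR-183-5p and 3.79 for miR-183-3p. For these arms the table differed from the log2 total gene signal by -0.35, 0.04, 0.12 and 0.11. It gave 2.3236 for miR-182-3p, just above the value of 2.3219 for miR-96-3p and the floor of the table, so these arms cannot be ordered from that table by more than the detection flag.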

How the data were processed

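Levels of miRNA were measured in 1 sample of DLD-1 cells on 1 single-colour Agilent array. Per the file headers, the authors extracted spot intensity with Feature Extraction 11.0.1.1, and their deposited scanner output gives spot intensity after background subtraction, not normalized between arrays, with flags and summed signals per probe and miRNA. The authors also deposited log2 values, which the methods give as quantile normalized in GeneSpring. The steps behind their floor are not given in the sources used here. The labels name ligation of Cyanine 3-pCp to RNA, while the study's methods name a cDNA labelling kit.

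Spots flagged as outliers were left out of miRNA spot means (4.52% of miRNA spots). The negative control spots were used whole. A probe total equalled 0.0183 times the mean of its kept spots times its number of spots. The SE of a difference between probes came from replicate spots, and edits are the fewest substitutions, insertions and deletions between 2 sequences. No p-value was computed. Python 3.11.15, numpy 2.4.6, pandas 2.3.3, scipy 1.17.1, matplotlib 3.10.9, R 4.3.3 and limma 3.58.1 (normexp, offset 50, on the median spot signal and local background) were used, and the calculations were tested on simulated data. The alternatives were other detection rules, normexp, a reference percentile from all miRNA spots, keeping outlier spots, the brightest probe, the deposited values, no filter on dim probes, medians over spots, removal of the medians of 16 blocks of the array, and other ranks.

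The members, lists and rules were chosen with earlier results of these data known. Named were the 6 members and their probes, miRNAs with the seed of a member or within 3 edits of it, a colorectal list, the 3 largest differences between probes elsewhere, and the arms of the miR-200 clusters, miR-191 and miR-425. In addition, miR-32-5p was named after its value was seen. Of the columns of samples, 0 were left out. The single array limits the precision.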

Additional observations from a re-analysis of the deposited data

Results flagged for a closer look

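The software also flags spots as positive and significant, a flag that the detection of a miRNA does not use. For hsa-miR-96-3p, which was not detected, 5 of 20 spots (25%) carried it, above the 9.90% of the 1000 negative control spots. Over all spots of the 1416 miRNAs not detected the share was 22.6%, and 434 of these miRNAs (30.6%) had a share as high as that of miR-96-3p. Its 5 spots came from 3 of its 4 probes, A_25_P00013236, A_25_P00013238 and A_25_P00013239. The reason for the excess over negative control spots was not tested.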

How the results depend on the processing

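Over 20 results, 83 alternative values were computed, of which 45 stayed within their limits, 34 moved and 4 changed sign, 28 of those that moved being values of single arms. The count of detected arms, 5, fell to 3 where every probe had to be usable, without miR-183-3p and miR-182-3p. Over the 2549 miRNAs on the array the count fell from 1133 to 748 under the same rule. The cluster hairpins with both arms detected, 2, fell to 1 with a total gene signal of 5 or more. That rule was met by 849 miRNAs on the array, and the share of hairpins under it is not given here. The median log2 signal over the detected arms, -0.31, is that of miR-183-5p. It became 2.13 with the percentile over all miRNA spots, by the lower reference, and 0.29 with the brightest probe, which leaves out dimmer probes. With the deposited values, which are given per miRNA and set against a reference of their own, it was -0.14. The cause of that change was not tested. The median difference between probes over 4 arms, 1.80, became 0.92 with normexp, where an offset raises dim signals most in proportion, and 3.68 when dim probes were not filtered, which brings in the probe of miR-183-3p near 0. Under normexp the difference in miR-183-3p, 0.68, was under 1 log2 unit. The median percentile of the total gene signal, 73.6 among detected miRNAs, was 88.3 among all miRNAs, as undetected miRNAs are added below. Keeping outlier spots, medians over spots and removal of block medians left the differences between probes within the SD over spots. No paired analysis was possible because there was 1 array. Signal over background limits miR-182-3p, miR-96-3p and the dimmest probes of miR-182-5p and miR-183-3p.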
